A study of Mus musculus with 6 samples.

Results

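The genes described here are the late pluripotency network genes Utf1, Nr0b1, Dppa5a, Esrrb, Zfp42, Fgf4, Eras, Fbxo15, Sall4 and Tfcp2l1, 10 of the 20325 genes listed for each library. The set is a list of names, drawn up with earlier results of these data known. The symbols of 9 match the files directly, and Tfcp2l1 is listed under its older symbol Tcfcp2l1 with the same RefSeq transcript. RNA-seq was done on reprogramming neural stem cells, brain cells that renew themselves and can form neurons and glia, taken from mice of mixed 129/Black 6 strain at postnatal day 4. In all groups the mice were homozygous for a doxycycline-inducible Oct4-Sox2-c-Myc-Klf4 cassette (Stemcca) at ColA1, and they carried 1 copy of rtTA, the transactivator that doxycycline switches on, at Rosa26. Cells were given doxycycline until day 7, fixed, stained and sorted into Nanog+E-cadherin+ cells (n = 3) and Nanog+E-cadherin- cells (n = 3), called E-cadherin+ and E-cadherin- cells from here on. Neither untreated neural stem cells nor established pluripotent cells are among these 6 libraries, so a level has no start or end point to be set against. The comparison asks how Nanog-expressing intermediates with and without the epithelial adhesion protein E-cadherin differ.

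Pluripotency is held by a network of transcription factors around Oct4, Sox2 and Nanog. Other genes of the network, such as Esrrb, Tfcp2l1, Zfp42 (Rex1) and Dppa5a (Esg1), are known to be silent in neural stem cells and to come on late as cells reprogram. Fbxo15 and Sall4 are known to respond earlier, and Fgf4 and Utf1 are classical targets of Oct4 and Sox2 acting together.

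Of the 10 genes, 7 matched an entry in the RefSeq promoter table of GRCm38.p6, and 3 of them are printed because they stand for 3 outcomes: Utf1 differed most between the populations, Tfcp2l1 was on in every library, and Zfp42 was on in none. Each is the 250 bases before the transcript start, 5′ to 3′ on the gene's own strand. Capitals mark any match, on either strand, to the octamer ATGCAAAT bound by Oct4, to the GC box GGGCGG and to the TATA box TATAAA. The Utf1 stretch is chr7:139943606-139943855 on the plus strand, Tfcp2l1 is chr1:118627695-118627944 on the plus strand, and Zfp42 is chr8:43307010-43307259 on the minus strand.
Utf1: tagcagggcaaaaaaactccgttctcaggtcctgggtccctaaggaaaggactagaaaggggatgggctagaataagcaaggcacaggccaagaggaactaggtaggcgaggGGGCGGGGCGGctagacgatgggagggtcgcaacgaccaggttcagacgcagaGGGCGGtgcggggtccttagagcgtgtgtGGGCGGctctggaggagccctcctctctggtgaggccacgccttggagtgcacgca
Tfcp2l1: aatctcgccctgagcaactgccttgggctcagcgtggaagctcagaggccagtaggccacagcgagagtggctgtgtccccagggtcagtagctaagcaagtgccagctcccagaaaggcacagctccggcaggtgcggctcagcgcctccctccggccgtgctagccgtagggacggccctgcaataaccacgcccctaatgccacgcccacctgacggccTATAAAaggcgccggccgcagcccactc
Zfp42: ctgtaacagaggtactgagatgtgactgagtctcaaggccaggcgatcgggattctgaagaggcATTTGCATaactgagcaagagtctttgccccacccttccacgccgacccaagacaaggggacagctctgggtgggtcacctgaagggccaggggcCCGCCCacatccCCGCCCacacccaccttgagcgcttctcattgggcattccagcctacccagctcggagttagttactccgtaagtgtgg
Utf1 holds 4 GC boxes, the first pair overlapping, Tfcp2l1 holds a TATA box starting 28 bases before the transcript start, and Zfp42 holds 2 GC boxes and an octamer, written on its other strand, starting 186 bases before. Among 32851 promoters of this length, with no chromosome left out, 32.7% hold a GC box, 12.4% a TATA box and 1.6% the octamer. Of the 7 genes taken, 4 hold a GC box (Utf1, Eras, Fgf4 and Zfp42), 2 a TATA box (Tfcp2l1 and Nr0b1) and 1 the octamer. A match in these letters is a description, not a binding site, and sequence beyond these 250 bases was not searched.

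Total expected counts, the read numbers that RSEM assigns to genes, ran from 8851110 to 39630916 per library, so that 1 CPM, a count scaled to its library's total, stood for 8.85 to 39.6 counts. Whether replicates came from separate cultures is not in the labels, and the p-values below therefore cover the spread among 6 libraries, which may be technical. E-cadherin- replicates 2 and 3 stand apart: olfactory and vomeronasal receptor genes, which these cells are not known to use, summed to 1886 and 1215 CPM there against 31.9 to 154.9 CPM in the other 4 libraries. Results are therefore also given for the pair numbered 1, which lacks this signal, and without those 2 libraries. Cdh1, which encodes E-cadherin, followed the sort, at 53.4 ± 20.2 against 7.57 ± 2.25 TPM, and Nanog stood at 158 ± 48.7 against 149 ± 19.8 TPM (SD, n = 3 each). TPM is a level per transcript length and library depth. Of 8 marker lists, summed neural stem TPM ran from 1175 to 4581 in E-cadherin+ and from 1582 to 4736 in E-cadherin- cells, with none of its 9 genes at the floor of 3 counts in every library. Neuron markers (6 genes) summed to 598, 209 and 145 TPM in E-cadherin+ replicates 1 to 3 against 837, 430 and 244 TPM in E-cadherin- replicates 1 to 3, lower in E-cadherin+ cells in each pair, and 1 of them, the neuronal tubulin gene Tubb3, passed edgeR's test with the replicate block. Summed TPM of fibroblast markers (6 genes) ran from 154 to 1386 against 195 to 950, and that of keratinocyte markers (5 genes) from 11.2 to 31.2 against 4.43 to 7.01, with Krt5 at the floor throughout. Trophoblast markers summed to 30.9 TPM or less with Cdx2 at the floor, primitive endoderm markers to 1.69 TPM or less with Sox17 and Foxa2 at the floor, germ cell markers to 3.67 TPM or less with Mael at the floor, and blood and endothelial markers to 34.7 TPM or less. The part of other cell types in the results below was not tested.

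At day 7 some of the 10 genes were on in both populations, while others were on in few libraries or in none. A gene was called on in a library at 1 TPM or more with at least 10 counts, at the floor with 3 counts or fewer, and low otherwise. Fbxo15, Nr0b1, Sall4, Fgf4 and Tfcp2l1, 5 of the 10, were on in all 6 libraries, against 53.4% of all genes listed, so this share is near the background. Eras, Utf1, Dppa5a and Esrrb were on in some, and Zfp42 was on in none, as were 27.3% of all genes. Eras was on in 5 libraries, Dppa5a in 5, Utf1 in 4 and Esrrb in 2. By library, 9, 7 and 8 of the 10 were on in E-cadherin+ replicates 1 to 3, against 57.3%, 62.2% and 61.9% of all genes listed. In E-cadherin- replicates 1 to 3, 8, 7 and 7 were on, against 58.4%, 66.8% and 62.7% of all genes listed. Of the 10 genes, 7 were on in equal numbers of libraries of both populations, and only Utf1, with 3 libraries against 1, differed by more than 1 library. With a minimum of 5 TPM, 3 were on in every library.

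**Figure D1:**
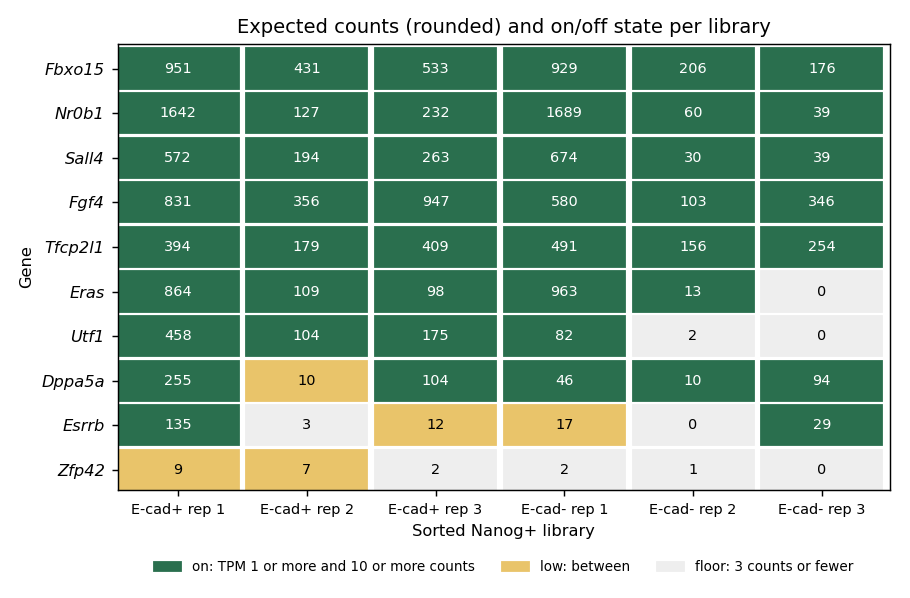
Expected counts, rounded, of the 10 genes (rows) in the 6 libraries (columns), coloured by state: on, low or at the floor. Fbxo15, Nr0b1, Sall4, Fgf4 and Tfcp2l1 are on in every library, Zfp42 in none, and Utf1 and Eras reach 0 counts in E-cadherin- replicate 3. Dppa5a in E-cadherin+ replicate 2 is low because its unrounded count is 9.85.

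Utf1, a chromatin-associated protein of undifferentiated embryonic cells, showed the widest gap between the populations. It stood at 29.1, 14.9 and 15.2 TPM in E-cadherin+ replicates 1 to 3 and at 2.86, 0.33 and 0 TPM in E-cadherin- replicates 1 to 3. The lowest E-cadherin+ library was above the highest E-cadherin- library, and only E-cadherin- replicate 1 was on. The counts behind these levels were 458, 104 and 175 against 82, 2 and 0. Within the pair numbered 1 Utf1 CPM was 10.9-fold higher in E-cadherin+ cells. Within the pair numbered 2 the ratio was 45.4, with an exact 95% interval of 12.3 to 380 for counting error alone, and within the pair numbered 3 it was at least 27.8-fold, taking 3 counts as the floor. With group as the only term edgeR fitted a log2 fold change of 3.93 ± 1.30 (SE), with an unadjusted p of 0.0182 and an adjusted p of 0.9999. With the replicate number as a block it fitted 4.70 ± 0.75 (SE) and an adjusted p of 0.0534, just outside the threshold of 0.05. That value is sensitive to the scaling, the tool and the filter. With the block, edgeR's adjusted p was 0.0469 with DESeq2's size factors, 0.0588 with library totals and 2.87e-07 with no filter. Also with the block, the adjusted p was 4.22e-08 in DESeq2's Wald test and 0.015 in limma-voom. Without E-cadherin- replicates 2 and 3 the log2 fold change was 2.59 with group only.

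Nr0b1 (Dax1), an orphan nuclear receptor that acts as a corepressor, had its highest levels at replicate number 1 in both populations. It stood at 66.4, 11.6 and 12.8 TPM in E-cadherin+ replicates 1 to 3 and at 37.4, 6.23 and 5.21 TPM in E-cadherin- replicates 1 to 3. Both libraries numbered 1 were above the other 4, so the populations overlapped, yet the E-cadherin+ library was higher in each pair, by 1.90-fold, 1.85-fold and 2.84-fold in CPM. The blocked fit gave a log2 fold change of 1.09 ± 0.23 (SE; edgeR, adjusted p = 0.149), against 0.96 ± 1.17 (SE) with group only. On the log2 scale, the mean level at each replicate number ranged over 3.24, compared with a difference between populations of 1.10.

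Eras, a Ras-like GTPase that supports growth of embryonic stem cells through phosphoinositide 3-kinase, had the same shape with a wider range. Its levels were 59.4, 16.9 and 9.20 TPM in E-cadherin+ replicates 1 to 3 and 36.3, 2.30 and 0 TPM in E-cadherin- replicates 1 to 3. E-cadherin- replicate 1 lay above 2 of the 3 E-cadherin+ libraries, while E-cadherin- replicate 3 had 0 counts, against 98 in its E-cadherin+ partner. The CPM ratios were 1.76 and 7.33 in the pairs numbered 1 and 2, and at least 15.6-fold in the pair numbered 3. With the block the log2 fold change was 2.32 ± 0.69 (SE; edgeR, adjusted p = 0.284), and with group only 1.08 ± 1.61 (SE). The blocked log2 fold change depended on the tool, at 3.26 in DESeq2 (adjusted p = 0.358) and 0.98 in limma-voom (adjusted p = 0.230). With no filter edgeR's was little moved, at 2.34, but its adjusted p was 0.000527.

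Sall4, a zinc finger transcription factor of pluripotent cells, was on everywhere at lower levels. It stood at 11.04, 6.94 and 5.63 TPM in E-cadherin+ replicates 1 to 3 and at 5.71, 1.70 and 2.37 TPM in E-cadherin- replicates 1 to 3. Only E-cadherin- replicate 1 overlapped the E-cadherin+ range. The CPM ratios within pairs were 1.66, 5.65 and 3.22, and the blocked log2 fold change was 1.59 ± 0.38 (SE; edgeR, adjusted p = 0.179). The files join 3 Sall4 transcripts and use lengths of 3236 to 4604 bases for them in different libraries, which moves its TPM but not its counts.

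Fbxo15, an F-box protein whose gene is driven by Oct4 and Sox2 and which served as an early reporter of reprogramming, was on at similar TPM within each population. Its levels were 43.7, 44.6 and 33.3 TPM in E-cadherin+ replicates 1 to 3 and 23.4, 24.3 and 26.7 TPM in E-cadherin- replicates 1 to 3. The lowest E-cadherin+ library was above the highest E-cadherin- library, so the populations did not overlap. In CPM the gap was narrow, at 26.7 in E-cadherin+ replicate 3 against 26.1 in E-cadherin- replicate 1. The CPM ratios within pairs were 2.003, 1.83 and 1.44. The log2 fold change was 0.84 ± 0.33 (SE) with group only, with an unadjusted p of 0.0387 and an adjusted p of 0.9999, and 0.80 ± 0.21 (SE; edgeR, adjusted p = 0.228) with the block.

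Fgf4, the fibroblast growth factor through which embryonic stem cells activate their own ERK signalling, had its highest TPM in the libraries numbered 3. It stood at 19.6, 19.0 and 30.5 TPM in E-cadherin+ replicates 1 to 3 and at 7.51, 6.25 and 27.1 TPM in E-cadherin- replicates 1 to 3. The first 2 E-cadherin- libraries lay below every E-cadherin+ library, while E-cadherin- replicate 3 lay among them. In CPM E-cadherin+ replicate 1 (45.8) was above E-cadherin- replicate 3 (36.3). CPM was 2.80-fold and 3.02-fold higher in E-cadherin+ cells in the pairs numbered 1 and 2 but 1.31-fold higher in the pair numbered 3. The blocked log2 fold change was 1.15 ± 0.28 (SE; edgeR, adjusted p = 0.186), and 0.97 ± 0.52 (SE) with group only.

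**Figure D2:**
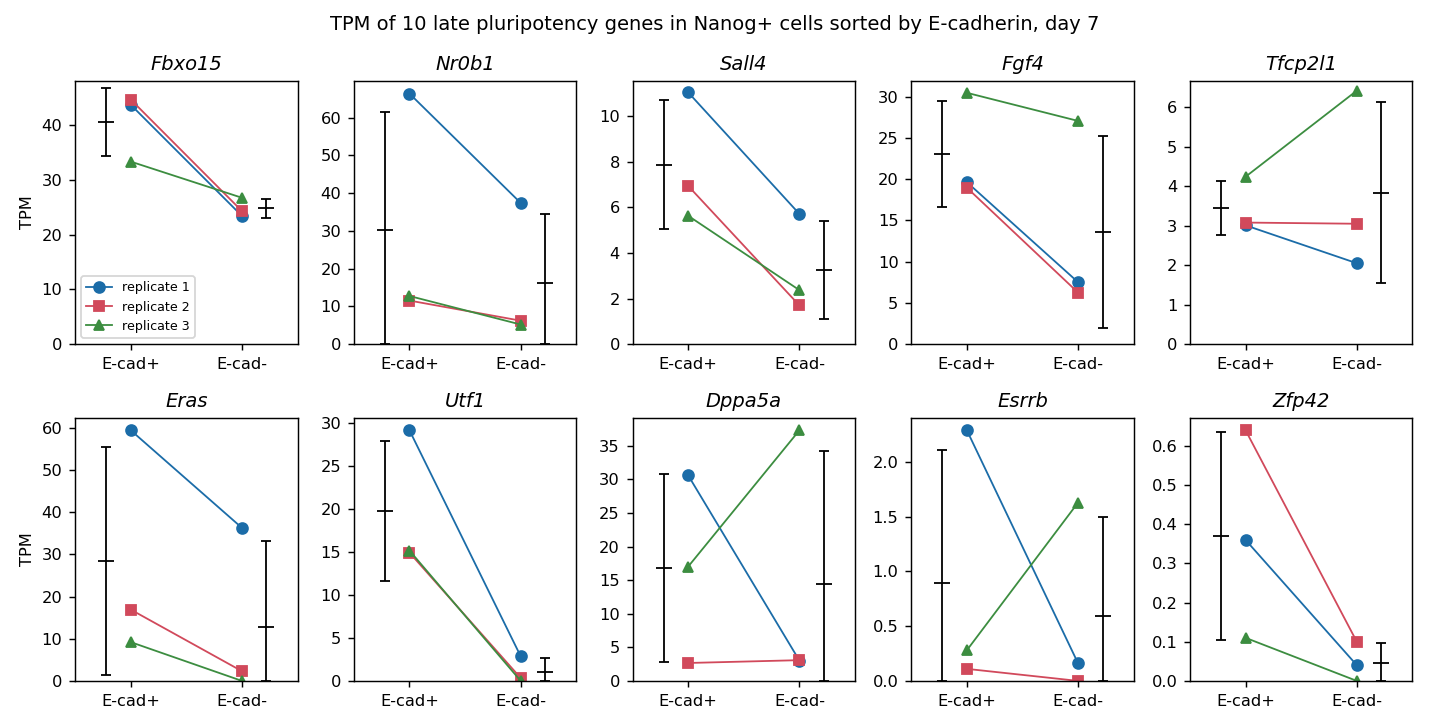
TPM (vertical axes, each from 0) of the 10 genes in E-cadherin+ and E-cadherin- cells, with lines joining libraries of equal replicate number; black marks are means with SD, cut at 0 (n = 3). All 3 lines fall from left to right for Fbxo15, Nr0b1, Sall4, Fgf4, Eras, Utf1 and Zfp42, while the lines of Dppa5a and Esrrb cross, with E-cadherin- replicate 3 at 37.3 and 1.63 TPM.

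Dppa5a, a KH-domain RNA-binding protein of early embryos and embryonic stem cells, went different ways in different pairs. Its levels were 30.6, 2.67 and 17.02 TPM in E-cadherin+ replicates 1 to 3 and 3.03, 3.09 and 37.3 TPM in E-cadherin- replicates 1 to 3. The highest library of all 6 was thus an E-cadherin- one, with 94 counts. E-cadherin+ cells had 10.8-fold the CPM in the pair numbered 1, 0.874-fold in the pair numbered 2 with 9.85 against 10 counts, and 0.528-fold in the pair numbered 3. The blocked log2 fold change was 0.72 ± 0.95 (SE; edgeR, adjusted p = 0.814). The RefSeq table lists the pseudogenes Dppa5b and Dppa5c on the same chromosome, so reads of near-identical copies may be counted here.

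Esrrb, an orphan nuclear receptor of the naive network, was on in 2 libraries, 1 of each population. It stood at 2.29, 0.11 and 0.28 TPM in E-cadherin+ replicates 1 to 3 and at 0.16, 0 and 1.63 TPM in E-cadherin- replicates 1 to 3, from 135, 3 and 12 against 17, 0 and 29 counts. The library with the most Dppa5a among E-cadherin- cells, replicate 3, was also the one with Esrrb on. E-cadherin- replicate 3 was the shallowest library and had an olfactory and vomeronasal receptor sum of 1215 CPM. The part of that signal was not tested. Esrrb did not pass the filter on low counts, and a fit of all genes with any count gave a log2 fold change of 1.64 ± 1.58 (SE) with the block.

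Zfp42, the zinc finger protein Rex1 and a classical marker of embryonic stem cells, was close to absent. It had 9, 7 and 2 counts in E-cadherin+ replicates 1 to 3 and 2, 1 and 0 counts in E-cadherin- replicates 1 to 3, or at most 0.64 TPM. All 3 E-cadherin- libraries were at or below the floor. In the pair numbered 1 the CPM ratio was 8.81, with an exact 95% interval of 1.82 to 83.8 for counting error alone, and in the pair numbered 2 it was 6.12 (0.786 to 276). Zfp42 did not pass the filter either.

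Tfcp2l1, a CP2-family transcription factor downstream of leukaemia inhibitory factor and Stat3, was on in every library at a low level. It stood at 3.01, 3.08 and 4.24 TPM in E-cadherin+ replicates 1 to 3 and at 2.05, 3.05 and 6.42 TPM in E-cadherin- replicates 1 to 3, from 156 to 491 counts. The highest and the lowest library were both E-cadherin-, and the pairs gave CPM ratios of 1.57, 1.003 and 0.768. The log2 fold change was 0.05 ± 0.38 (SE) with group only and 0.09 ± 0.28 (SE) with the block, and its sign changed with the scaling, at -0.021 with library totals and group only.

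Set in order of mean TPM in E-cadherin+ cells, Fbxo15 (40.5 ± 6.28), Nr0b1 (30.2 ± 31.3), Eras (28.5 ± 27.05), Fgf4 (23.03 ± 6.45), Utf1 (19.7 ± 8.14) and Dppa5a (16.8 ± 14.0) came first, and neighbours among these 6 differed by less than the larger of their SDs. Sall4 (7.87 ± 2.82), Tfcp2l1 (3.44 ± 0.69), Esrrb (0.893 ± 1.21) and Zfp42 (0.37 ± 0.27) followed (SD, n = 3). In E-cadherin- cells the order was Fbxo15 (24.8 ± 1.72), Nr0b1 (16.3 ± 18.3), Dppa5a (14.5 ± 19.8), Fgf4 (13.6 ± 11.7), Eras (12.9 ± 20.3), Tfcp2l1 (3.84 ± 2.29), Sall4 (3.26 ± 2.15), Utf1 (1.06 ± 1.56), Esrrb (0.597 ± 0.898) and Zfp42 (0.0467 ± 0.0503). Utf1 was thus in the fifth place in E-cadherin+ cells and in the eighth in E-cadherin- cells. The TPM of all 10 genes summed to 266, 120 and 128 in E-cadherin+ replicates 1 to 3 and to 118, 47.3 and 107 in E-cadherin- replicates 1 to 3.

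No member passed the test over all genes, although most were higher in E-cadherin+ cells. Of the 10 genes, 8 passed the filter, Utf1 and Eras with help from their E-cadherin+ libraries, so the tested genes are not a neutral sample of the 10. With group only, 0 of the 8 in edgeR's quasi-likelihood test passed an adjusted p of 0.05, as did 0.0% of the 13460 genes tested, and 2, Utf1 and Fbxo15, had an unadjusted p under 0.05 (2.67% of all genes). With the replicate block 0 of the 8 passed, against 41 of all genes or 0.305%, and 6 had an unadjusted p under 0.05, all higher, against 10.7% of all genes in either direction and 5.51% in that direction. Those 6 were Utf1, Nr0b1, Sall4, Fgf4, Fbxo15 and Eras, and each was higher in E-cadherin+ cells in all 3 pairs, as were 19.0% of the genes tested. All 8 were fitted higher in both fits, against 48.5% of all genes with group only and 51.9% with the block. Utf1 and Fbxo15 had no overlap between populations, against 3.74% of genes without overlap and higher and 6.99% without overlap in either direction. The median log2 fold change was 0.96 over the 8 with group only and 1.12 with the block, against -0.01 and 0.02 over all genes, and 1.03 over all 10 in the group-only fit without a filter. In the blocked fits of other tools, limma-voom called 3 of the 8 (Utf1, Nr0b1 and Fgf4) and DESeq2's Wald test 4 (these and Sall4), while they called 264 and 304 genes in all. In bulk RNA fewer cells expressing a gene and less RNA per cell cannot be told apart.

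**Figure D3:**
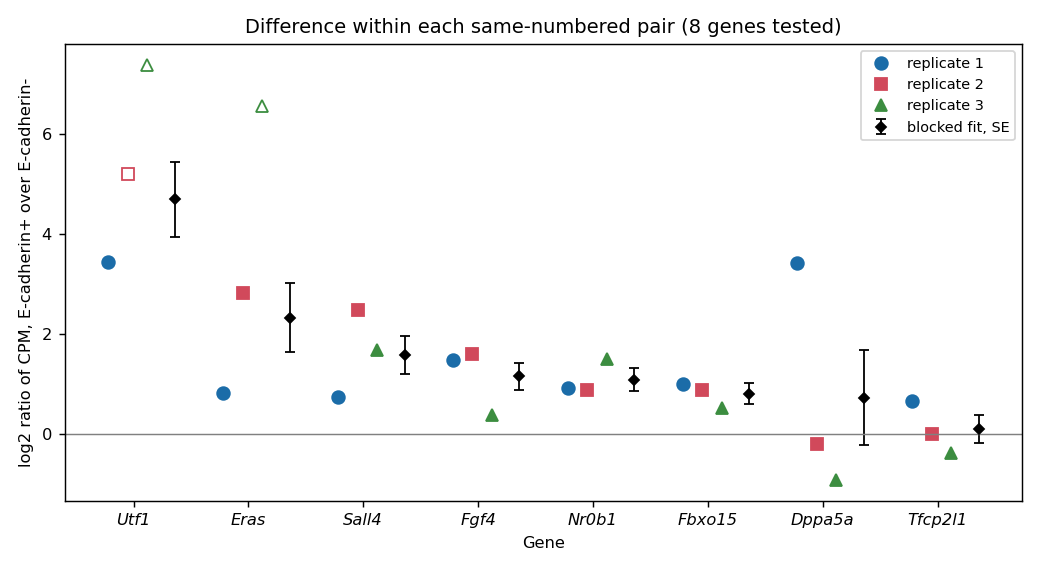
Log2 ratio of CPM, E-cadherin+ over E-cadherin- cells, within each same-numbered pair for the 8 genes tested; open symbols have 3 counts or fewer in the E-cadherin- library, and black diamonds are the blocked fit with its SE. All pairs lie above 0 for Utf1, Eras, Sall4, Fgf4, Nr0b1 and Fbxo15, while Dppa5a ranges from -0.92 to 3.43.

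Replicate number moved these genes as it moved most genes. On the log2 scale, the range over the 3 means by replicate number exceeded the difference between the 2 population means for 6 of the 8 tested genes, against 88.1% of all genes tested, so this share is near the background. Utf1, Nr0b1, Eras, Fbxo15 and Sall4 had their highest mean over both populations at number 1, and Dppa5a, Fgf4 and Tfcp2l1 at number 3. Those 6 were Nr0b1, Eras, Dppa5a, Fgf4, Sall4 and Tfcp2l1, with the widest range for Eras (6.14 against 3.40 on the log2 scale). The libraries numbered 1 also had the lowest summed neural stem markers (1175 and 1582 TPM) and fibroblast markers (154 and 195 TPM) and the highest summed neuron markers (598 and 837 TPM). The part of these in the levels was not tested. With group only and without E-cadherin+ replicate 1, which unbalances the replicate numbers, the fitted changes of Nr0b1 (-0.85), Eras (-0.54) and Dppa5a (-0.40) were below 0, and the median over the 8 was 0.22. Without E-cadherin- replicates 2 and 3, with 1 library left in that group, those of Nr0b1 (-0.35) and Eras (-0.42) were below 0 too, that of Sall4 was close to 0 (0.059) and that of Fbxo15 was 0.51. Those of Utf1 (2.59), Fgf4 (1.29) and Dppa5a (2.36) were above 1, and the median was 0.90 over all 10 genes, which then pass the filter. Other single libraries moved values too: the log2 fold change of Utf1 was 7.12 without E-cadherin- replicate 1, that of Sall4 was 2.58 without the same library and 0.68 without E-cadherin+ replicate 1, that of Fgf4 was 0.62 without E-cadherin- replicate 2 and 1.66 without E-cadherin- replicate 3, and that of Fbxo15 was 0.51 without E-cadherin+ replicate 1. Without E-cadherin- replicate 1 those of Nr0b1 (3.01) and Eras (5.11) were higher, and Dppa5a was at 2.61 without E-cadherin- replicate 3. Within the pair numbered 1 alone all 10 genes were higher in E-cadherin+ cells, as were 6867 of the 13460 genes tested. The median log2 ratio in that pair was 1.24 over the 10 and 0.965 over the 8 tested, against 0.0081 over all genes tested.

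Among the rest of the pluripotency network 1 gene passed the test, with the block. Of 34 other network genes, 23 were on in every library, against 53.4% of all genes listed, and 27 were tested. Both counts include Nanog, used for the sort, and Pou5f1 (Oct4), Sox2 and Klf4, which the cassette carries. With group only 0 passed in either direction, and 19 were fitted higher and 8 lower, against 48.5% of all genes fitted higher. The median log2 fold change was 0.34. With the block 1 rose and 0 fell, against 0.305% of all genes called in either direction, and the median was also 0.34. The gene that rose was Tdgf1, a co-receptor for Nodal, at 59.5, 25.7 and 13.5 TPM in E-cadherin+ replicates 1 to 3 and 13.6, 2.80 and 6.21 TPM in E-cadherin- replicates 1 to 3 (edgeR with the block, log2 fold change 2.23 ± 0.35 (SE), adjusted p = 0.0490). No gene of this list passed in any group-only fit run (DESeq2's gave 12 of the 27 an adjusted p), or with the block and library totals. The germline and naive regulator Prdm14 was on in no library, like Zfp42. Dppa2, Dppa3 and Dppa4, chosen for mention with Prdm14 after their values were seen, were on in E-cadherin- replicate 2, at 1.72, 3.78 and 12.7 TPM, and of these 3 genes in the other 5 libraries only Dppa4 was on, in E-cadherin+ replicate 1 at its threshold. E-cadherin- replicate 2 also held the largest sum of olfactory and vomeronasal receptor genes, and the part of that signal was not tested.

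**Figure D4:**
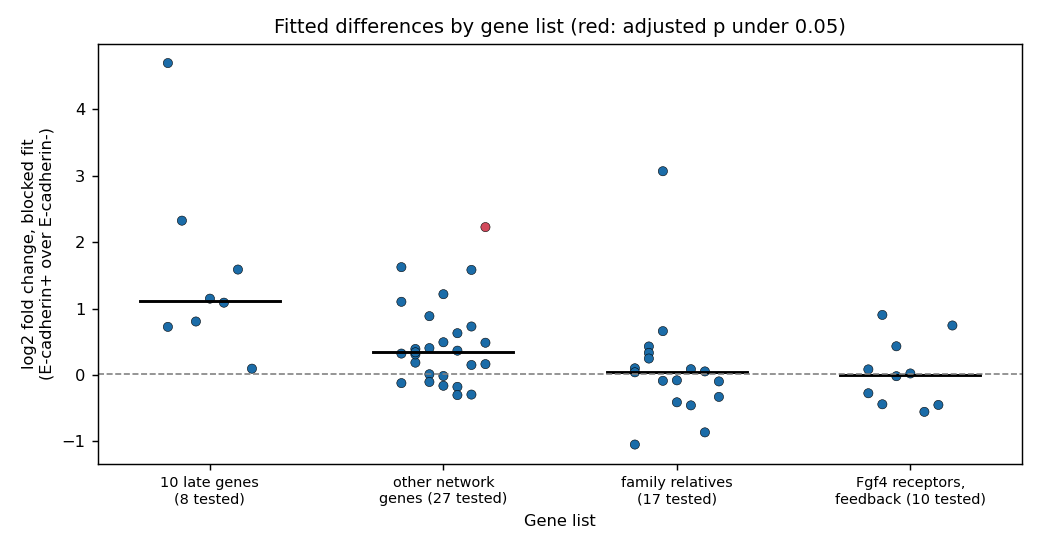
Log2 fold change in the blocked fit (E-cadherin+ over E-cadherin-) of each tested gene of the 4 lists, with list medians as bars and the median of all genes as the dashed line. The late genes have a median of 1.12 and the other network genes one of 0.34; Tdgf1 is the only gene in red.

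No relative of the 10 genes passed the test in either fit. Of 28 relatives, 14 were on in every library, against 53.4% of all genes listed. Of the 17 tested, 0 passed in either fit, and the median log2 fold change was -0.11 (group only) or 0.04 (blocked). Esrra, the broadly used relative of Esrrb, stood at 54.4 ± 1.77 against 55.05 ± 10.9 TPM (SD, n = 3 each). The 3 relatives of smallest p in the blocked fit were Sall3 (-0.87 ± 0.24), the Ras-like Rras2 (0.66 ± 0.19) and Sall2 (-0.46 ± 0.16) (log2 fold change ± SE). Sall3 stood at 4.99 ± 1.93 against 10.7 ± 5.93 TPM and was lower in E-cadherin+ cells in all 3 pairs, where Sall4 was higher in all 3. The fibroblast growth factors Fgf2, Fgf5, Fgf6, Fgf8 and Fgf15 were on in no library, in contrast to Fgf4.

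Receptors and feedback genes that act with Fgf4 were tested as a list of 10. None passed in either fit, and the median log2 fold change was -0.06 (group only) or 0.0012 (blocked). Fgfr1, the main receptor in embryonic stem cells, stood at 185 ± 85.5 against 201 ± 113 TPM (SD, n = 3 each). The 3 of smallest p in the blocked fit were the ERK-induced factors Etv4 (0.90 ± 0.25) and Etv5 (0.43 ± 0.18) and the receptor Fgfr2 (-0.56 ± 0.17) (log2 fold change ± SE).

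The genes whose levels over the 6 libraries were most like the mean of the 8 tested members were Kcmf1, Sec14l1, Spnb4, Hspa8, Traip, Tmem19, Tex10 and Urod, with Pearson r of 0.97 to 0.99 over 6 libraries. Of 10431 genes compared, 168 or 1.61% had an r of 0.9 or more, and all points share the same libraries and scaling, so this is a description. Traip, for example, ran at 70.2, 38.7 and 48.4 CPM in E-cadherin+ replicates 1 to 3 and 41.1, 16.97 and 33.3 CPM in E-cadherin- replicates 1 to 3. Hspa8, an abundant chaperone, had a like profile over the narrower span of 2783 to 4103 CPM.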

How the data were processed

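RNA-seq gene tables of 6 libraries, 3 per sorted population, were used, grouped and numbered by their titles. The submitters' processing notes name Bowtie, RSEM 1.2.4 and mm9. Settings and strand were not given in the sources used here. Per the file headers, the authors' files give an expected count, a TPM and an FPKM value per gene. Expected counts deposited by the authors were rounded for tests. The authors' TPM values were used for levels and states, and the deposited FPKM values were not used. Promoter coordinates are those of GRCm38.p6, not mm9.

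Counts were tested with edgeR 4.0.16 in R 4.3.3 (TMM, filterByExpr with minimum count 10 and minimum total 15, quasi-likelihood, Benjamini-Hochberg over all 13460 genes, threshold 0.05), with group as the only term. SE values are the fitted change divided by the square root of F. CPM values are TMM-scaled, and pair ratios on the log2 scale add a prior count of 0.5. A replicate block was fitted as an alternative, as were DESeq2 1.42.0 and limma 3.58.1, other scalings, no filter, and fits without single libraries. Same-numbered libraries deviated together from their group means (r = 0.73, 0.40 and 0.45 over genes, differently numbered -0.59 to 0.11). All same-numbered values were above the limit of 0.1, so blocked values are given. E-cadherin+ replicate 2 with E-cadherin- replicate 3 (0.111) and E-cadherin+ replicate 3 with E-cadherin- replicate 2 (0.101) were above it too. The limit alone thus does not separate same-numbered from differently numbered libraries. This pairing rests on the values, since no label ties a number to a shared culture. Steps were tested on simulated data.

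The genes and lists were chosen with earlier results of these data known. All 10 members are named. Of each other list, genes past the threshold in either fit are named, or else the 3 of smallest p in the blocked fit. The 8 genes of highest Pearson r with the mean standardised log2 CPM of the tested members are named from genes with a mean of at least 5 CPM, leaving out predicted and clone-named genes. Other genes are named as relatives or as a check. Intervals and floors cover counting error only.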

Additional observations from a re-analysis of the deposited data

How the results depend on the processing

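Over all genes, edgeR with group only called 0 genes, with 359 at an unadjusted p under 0.05. It called 1 with no filter, and DESeq2's Wald test called 21. With the replicate block, edgeR called 41 (35 with library totals, 44 with DESeq2's size factors, 352 with no filter), DESeq2 304 and limma-voom 264. Of the members, 0 passed in the group-only fits run with edgeR and limma, while DESeq2's group-only test gave an adjusted p to 0 of the 8 (and to 5626 of all genes) and so could call none. With the block, 0 passed in edgeR, 0 with library totals, 1 with DESeq2's size factors (Utf1), 5 with no filter, 4 in DESeq2 and 3 in limma-voom. Without both libraries numbered 1, 2 or 3, blocked fits called 182, 140 and 449 genes and 1, 3 and 6 members. Of the other network genes 1 passed with the block in edgeR, 1 with size factors added, 5 with no filter, 4 in DESeq2 and 5 in limma-voom, and 2, 4 and 4 without the libraries numbered 1, 2 or 3. Of the relatives 1 passed without those numbered 1, and of the Fgf4 list 1 without those numbered 3. The fits with the block and no filter, library totals or size factors were chosen after seeing the data. The cause of these shifts was not tested.

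The members' median log2 fold change was 0.96, and 1.12 with the block, 1.14 in DESeq2 with the block, 1.12 in limma-voom with group only, 1.13 with the block and size factors and 1.39 with the block and no filter. With the block it was 1.18 without the libraries numbered 2 and 1.48 without those numbered 3. Leaving out each library in turn with group only gave 0.22 (without Nanog+E-cadherin+ replicate 1) to 1.40, and never a called member. With 5 TPM as the minimum, 3 members were on in every library, in place of 5. Signs turned for Tfcp2l1 with group only at library totals (-0.021), log2(TPM + 1) (-0.032), log2(TPM + 0.1) (-0.014) and without single libraries (range -0.11 to 0.45), and with the block without the libraries numbered 1 (-0.18). They also turned for Dppa5a with the block without those numbered 1 (-0.58), and for Nr0b1 (-0.35) and Eras (-0.42) without Nanog+E-cadherin- replicates 2 and 3. Over the fits without single libraries, Nr0b1 ran from -0.85 to 3.01, Dppa5a from -0.40 to 2.61 and Eras from -0.54 to 5.11, each lowest without Nanog+E-cadherin+ replicate 1. In the shallowest library 3 counts stand for 0.315 CPM, so lower levels were not detectable there.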
